A study of Mus musculus with 6 samples.

Results

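The control transcriptome of murine embryonic stem cells (ESCs) was described from a single RNA-seq library, the shGFP library, which is 1 of the 6 libraries of the series. The cells were V6.5, a C57BL/6-129 hybrid line that is kept on irradiated mouse fibroblasts (iMEFs) and was grown for a passage on gelatin without them before expression analysis. The cells were infected with lentivirus carrying an shRNA against GFP (TRCN0000072201), a hairpin used as the control for knockdowns of chromosome structure proteins, in medium with 8 µg/ml polybrene. After 24 hours they were selected with puromycin, per the labels at 0.5 µg/ml for 48 hours and at 1 µg/ml for a further 48 hours. The study's methods give another dose of puromycin than the labels. To the RNA of 652000 cells, 1.42 µl of a dilution of the ERCC synthetic RNAs had been added. No uninfected cells are compared here, so the baseline of the line and any effect of infection, selection or the hairpin cannot be told apart.

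All 26073 RefSeq transcript rows of this library were taken, with the 92 ERCC rows left out, and for each gene symbol the row with the most counts was kept, which gave 21038 genes. The level of a gene is its RPKM, the reads of a gene scaled to its exon length and to the reads of the library, so that genes of different length can be set beside each other. The rows held 28524603 counts in all, where a read in an exon of several isoforms counts for each of them. The scale of the RPKM corresponds to 21521987 reads. At this depth 1 count in a transcript of 1000 bases is an RPKM of 0.0465, and a transcript of that length with no count can have had an RPKM of up to 0.139 (3 counts). There is no replicate, and the ranges given in brackets are exact Poisson 95% intervals that cover counting error only.

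ESCs are grown from the inner cell mass of the blastocyst and can form all tissues of the embryo. Their state is held by a circuit of transcription factors around OCT4, SOX2 and NANOG, which bind together at enhancers of their own genes and of other ESC genes. These cells divide fast with a short G1 phase, draw on glycolysis as well as respiration, and keep many developmental regulators under Polycomb repression.

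Levels spanned more than 5 orders of magnitude on the RPKM scale. An RPKM of at least 1 was found for 12166 of the 21038 genes, or 57.8%, and 4442 genes (21.1%) had no count. The median was 2.76 over all genes and 14.15 over those with an RPKM of at least 1. In steps of 10, 1605 genes had a count but an RPKM under 0.1, 2825 lay between 0.1 and 1, 4873 between 1 and 10, 6480 between 10 and 100, 799 between 100 and 1000, and 14 at 1000 or more. The 100 most abundant genes carried 16.3% of the summed RPKM and the 10 most abundant 4.67%. At the other end of the same ranking, 5812 genes were needed to reach 90% of the sum.

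**Figure D1:**
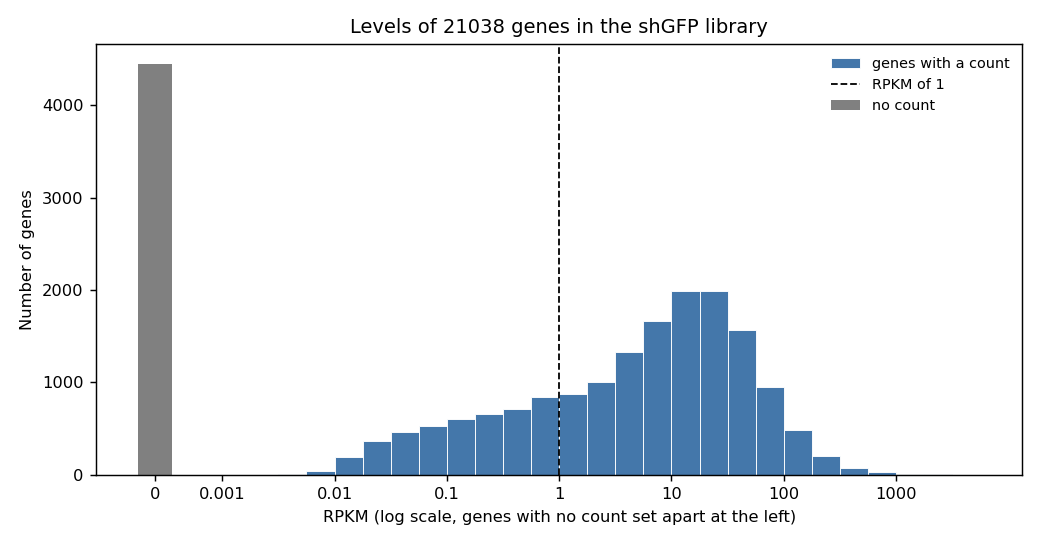
Number of genes (vertical axis) by RPKM on a log scale (horizontal axis) in the shGFP library, in steps of 0.25 log10 units, with the 4442 genes without a count as a grey bar at the left and the RPKM of 1 as a dashed line. The largest steps lie just above an RPKM of 10, with a long flank of lower levels that reaches below 0.01.

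The most abundant transcripts were those of protein synthesis. *Rpl8*, a protein of the large ribosomal subunit (chromosome 15 from 76734501 to 76736748, plus strand, mm9), had the highest RPKM at 3226 (3200 to 3252, 59845 counts). *Rack1*, a scaffold on the small ribosomal subunit, had 2536 (2517 to 2555), and *Rpl4* had 2075 (2059 to 2091). *Hsp90ab1*, the constitutive cytosolic HSP90 chaperone, reached 2043, the translation factors *Eef1b2* and *Eef2* 1579 and 1376, and *Atp5b*, the catalytic subunit of mitochondrial ATP synthase, 1541.

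*Pou5f1*, which encodes OCT4, ranked 10 among all genes, with an RPKM of 1286 (1273 to 1299, 37239 counts). It was the only transcription factor of the pluripotency list among the 25 most abundant genes. That group also held *Tubb5* (1148), *Mt2*, a metallothionein (1140), *Pfn1*, an actin-binding profilin (1124), *Ywhae*, a 14-3-3 protein (860.3), *Igfbp2*, a secreted binding protein of insulin-like growth factors (850.5), *Atp5a1* (809.6), *Prdx1* (775.0), *Eif5a* (762.8), *Cox4i1* (757.9) and *Actb* (756.7), with *Rps9* (1432), *Rps3* (1236), *Rps20* (874.3) and *Rplp2* (766.3) among the ribosomal proteins. *Trim28*, the corepressor that KRAB zinc finger proteins recruit to silence transposable elements, had an RPKM of 808.9. *Slc2a3*, a high-affinity glucose transporter, had 758.1. Of the 100 most abundant genes, 13 were cytosolic ribosomal proteins, 9 belonged by name to ATP synthase or the respiratory chain, 8 were chaperones, 5 were translation initiation or elongation factors, 5 belonged to glycolysis or glucose transport and 50 to none of the groups counted. No row under 300 bases was among these 100 genes.

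All 20 core and naive pluripotency factors had an RPKM of at least 1, against 57.8% of all genes, and their median was 76.95, against 2.76 over all genes. After *Pou5f1* the highest were *Nanog* at 423.6 (416 to 431) and *Sox2* at 365.3 (360 to 370). *Klf2* at 209.8 (205 to 214), *Esrrb* at 209.6 (207 to 213) and *Zfp42*, also known as Rex1, at 205.3 (201 to 210) had overlapping counting intervals. A middle group included *Mycn* (179.4), *Sall4* (90.2), *Nr0b1* (85.0), *Klf4* (78.5), *Tcl1* (75.4), *Klf5* (70.1), *Tfcp2l1* (44.9) and *Stat3* (34.9), the transducer of LIF. The lowest were *Tbx3* (26.2), *Prdm14* (19.9), *Nr5a2* (15.2), *Myc* (10.2, 9.34 to 11.1) and *Smad1* (9.66, 8.92 to 10.4), the transducer of BMP signals. Within the Myc family the *Mycn* level was thus far above that of *Myc* in this library. The list ranged from 9.66 to 1286, and 19 of the 20 had at least 10. The median of all genes with an RPKM of at least 1 was 14.15.

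Of 27 other genes enriched in ESCs, 25 had an RPKM of at least 1 (92.6%, against 57.8% of all genes), with a median of 92.3. They included *Tdgf1*, the Nodal coreceptor Cripto (606.5), *Utf1*, a chromatin-bound ESC factor (544.0), *Lin28a*, the RNA-binding repressor of let-7 maturation (207.4), *Fgf4*, the growth factor ESCs themselves secrete (178.3), *L1td1* (173.8), *Lefty1*, a Nodal antagonist (171.1), and *Cdh1*, which encodes E-cadherin (134.1). *Tdh*, threonine dehydrogenase, on which mouse ESCs are known to depend, had 268.1. The pair under 1 was *Zscan4d* (0.210, 9 counts) and *Zscan4c* (0.0410, 2 counts), members of a gene cluster known to be active in a small, changing fraction of ESCs. Few windows of their sequence could be placed, as set out further on. The same applies to *Dppa5a* (98.7), *Dppa4* (25.8) and *Dppa2* (16.7), whereas for *Dppa3* (25.3) 51.7% of the windows examined could be placed.

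**Figure D2:**
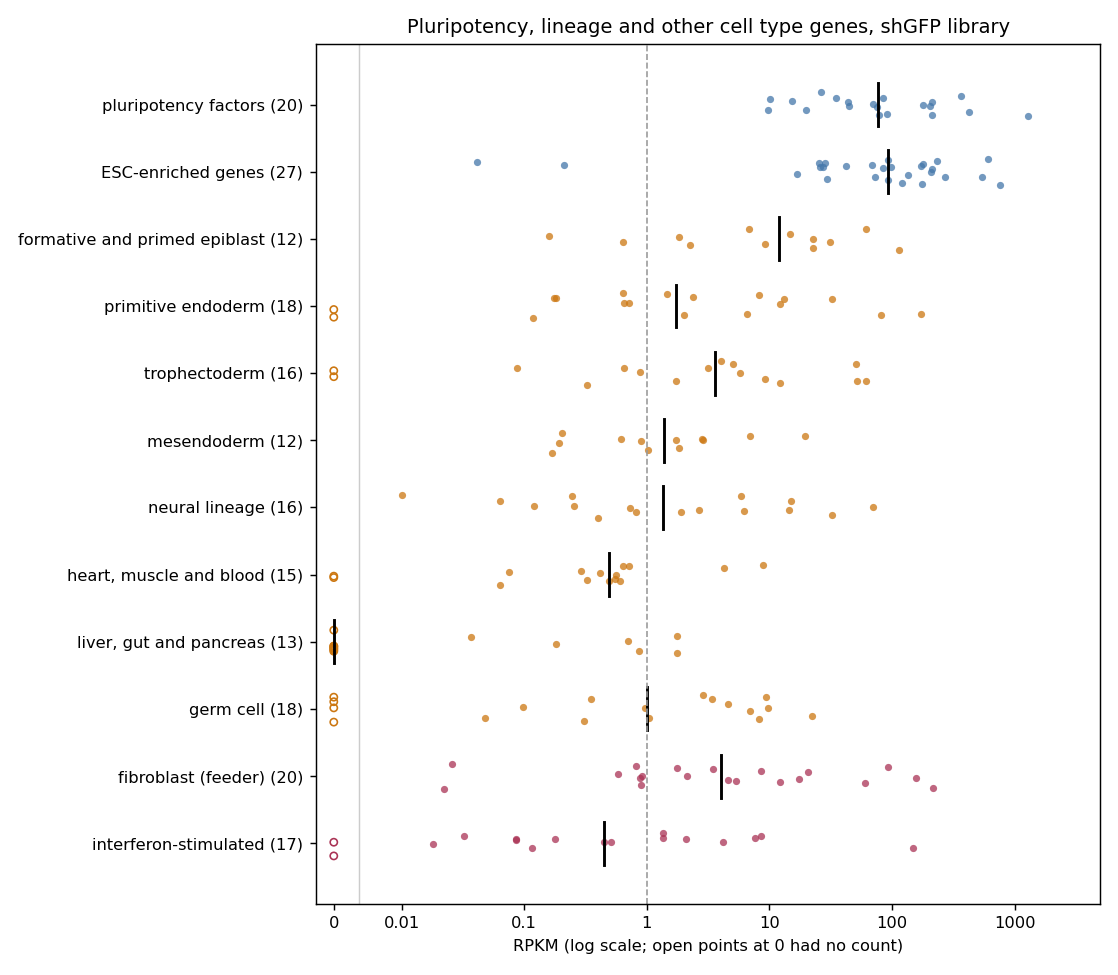
RPKM on a log scale (horizontal axis) of each measured member of 12 gene lists (rows, number of members in brackets) in the shGFP library, where black bars are list medians, the dashed line is an RPKM of 1 and open points at the left had no count. The pluripotency and ESC-enriched lists lie mostly above 10, whereas the medians of the lists for tissues and other cell types lie between 0 and 11.9.

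The medians of the lineage lists were below the 76.95 of the pluripotency factors. They went from 11.9 for epiblast genes to 0 for liver, gut and pancreas genes, against 2.76 over all genes. In bulk RNA a low level from all cells and a higher level from a few cells cannot be told apart. The formative and primed epiblast list had a median of 11.9 and 10 of 12 members at an RPKM of at least 1 (83.3%, against 57.8% of all genes). *Dnmt3b* (114.6), *Zic2* (61.2) and *Dnmt3a* (31.4) led it, *Otx2* and *Pou3f1* had 22.5 each, and *Fgf5*, the classic marker of the primed epiblast, had 2.23.

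For the extraembryonic lineages, not all regulators listed are named here. Those named, other than *Tfap2c*, were below the lowest of the pluripotency factors (9.66). In primitive endoderm, *Gata4* had 2.37, *Gata6* 0.713 (0.528 to 0.943) and *Sox17* 0.119 (8 counts), *Pdgfra* 0.645, *Sox7* 0.654 and *Foxa2* 0.175, and *Afp* and *Ttr* had no count. The highest members of this list were matrix genes, *Sparc* (171.2), *Lamc1* (81.8) and *Lamb1* (32.6). Of its 18 members 10 had an RPKM of at least 1, a share of 55.6% that is near the 57.8% of all genes. With a limit of 0.5 the share was 72.2%, and 13151 of all 21038 genes qualified. In trophectoderm, *Cdx2* had 0.325 (15 counts, 0.182 to 0.536), *Eomes* 5.03, *Gata3* 0.650, *Hand1* 1.74 and *Tfap2c*, which ESCs are also known to express, 51.2. *Elf5* and *Prl3d1* had no count. The simple epithelial keratins *Krt18* (61.0) and *Krt8* (51.4) were the highest members. Of the 16, 10 had an RPKM of at least 1, or 62.5%, near the 57.8% of all genes. At least 10 was reached by 4 of the 16, which include *Tfap2c* and a member not named here. Of all 21038 genes, 6480 lay between 10 and 100, 799 between 100 and 1000 and 14 at 1000 or more.

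Among mesendoderm genes only *Fgf8* exceeded 10, at 19.6 (18.0 to 21.4). *T*, also known as Brachyury, had 6.93, *Mesp1* 2.85, *Gsc* 2.81, *Wnt3* 1.82, *Mixl1* 0.894 and *Evx1* 0.614. Of the 12 members 7 were at 1 or more, or 58.3%, near the 57.8% of all genes. With a limit of 0.5 the share of this list was 75%. In the neural list 8 of 16 reached 1, or 50%, also near the 57.8% of all genes. *Tubb3*, a tubulin typical of neurons (69.7), *Olig2*, a regulator of motor neuron and oligodendrocyte precursors (32.2), *Nes* (15.0) and *Sox1* (14.5) were well above the others, while *Pax6* had 6.20, *Neurod1* had 5.91 and *Dcx* had 2 counts. Among 15 heart, muscle and blood genes the median was 0.489. Only *Des* (8.82) and *Actc1* (4.25) reached 1 (13.3%), but 7 reached an RPKM of 0.5 (46.7%), so that this count depends on the limit used, and *Ptprc* and *Hbb-bh1* had no count. Of 13 liver, gut and pancreas genes, only *Cela1* (1.76) and *Cdx1* (1.75) reached 1 (15.4%, against 57.8% of all genes). *Alb*, *Fabp1*, *Gcg*, *Ins1*, *Ins2*, *Serpina1a* and *Prss1* had no count, although for the last 2 named few windows of the sequence could be aligned.

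Of 18 germ cell genes 9 were at 1 or more, or 50%, near the 57.8% of all genes. *Stag3*, a meiotic cohesin subunit, had 22.3, *Mael* 9.65, *Sycp3* 9.29, *Ddx4* 6.92, *Stra8* 4.599 and *Dazl* 3.40. The genes of late sperm and egg differentiation *Prm1*, *Prm2*, *Tnp1* and *Zp2* had no count.

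Because the line is kept on fibroblasts, all 20 genes of a fibroblast list are given. Of these 13 had an RPKM of at least 1, or 65%, against 57.8% of all genes, and 18 (90%) had at least 0.5. Their summed RPKM was 604.3, against 3482 for the 20 pluripotency factors. *Vim* (214.8), *Fn1* (156.8), *Tagln* (91.98) and *Acta2* (60.2) were the highest, and the collagen genes *Col1a1*, *Col1a2* and *Col3a1* had 20.8, 12.3 and 2.11. *Fbln1* had 17.6, *Thy1* 8.52, *Twist1* 5.33, *S100a4* 4.57, *Loxl1* 3.48 and *Pdgfrb* 1.76. Between 0.5 and 1 lay *Col6a2* (0.910), *Col6a1* (0.900), *Postn* (0.875), *Twist2* (0.815) and *Prrx1* (0.579). The lowest were the matrix proteoglycans *Dcn* and *Lum*, with 1 count each (*Dcn* 0.0260, 0.000658 to 0.145). The part of fibroblasts in the levels of the shared genes was not tested.

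Interferon-stimulated genes were read because a lentivirus was used. Of 17, 7 had an RPKM of at least 1 (41.2%, against 57.8% of all genes), and the median was 0.446. *Bst2*, which encodes the membrane protein tetherin, stood apart at 148.7, the next were *Ddx58* (8.57) and *Oas1a* (7.66), *Isg15* had 2.09, *Ifit1* had 1 count, and *Mx1* and *Ifit3* had none.

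The metabolic lists were expressed almost throughout. All 22 glycolysis genes had an RPKM of at least 1, against 57.8% of all genes. Their median was 74.4, against 2.76 over all genes. *Pkm*, the last enzyme of the pathway (705.0), *Aldoa* (596.1), the glucose transporter *Slc2a1* (562.8) and lactate dehydrogenase *Ldha* (383.6) were the highest. Hexokinase 2, *Hk2*, had 112.8 and hexokinase 1, *Hk1*, 22.3. *Gapdh* had an RPKM of only 2.49 (1.93 to 3.17) on 66 counts, and *Pgk1* and *Pgam1* had 30.9 and 5.23, and under 50% of the windows of these 3 genes could be placed, as set out further on. All 23 genes of the tricarboxylic acid cycle and pyruvate entry were above 9, with a median of 101.7, led by *Mdh2* (249.4), *Sdhd* (176.1) and *Sdhc* (170.0). The lowest was *Pcx* (9.94), pyruvate carboxylase, which refills the cycle. The 36 subunits of respiratory complex I had a median of 107.7.

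In threonine, serine and folate metabolism 19 of 20 genes reached 1 (95%, against 57.8% of all genes), with a median of 63.2. *Psat1* of serine synthesis had 292.4, *Mthfd1* 170.9, *Mat2a*, which makes S-adenosylmethionine, 151.6, *Shmt2* 135.2 and *Gldc* of the glycine cleavage system 77.6. All 19 genes of nucleotide synthesis were above 19 (median 72.6), with *Gart* (232.0), *Paics* (172.4), *Impdh2* (162.7) and the ribonucleotide reductase subunit *Rrm2* (161.7) the highest. All 21 cholesterol and fatty acid genes measured had an RPKM of at least 1 (median 52.7), against 57.8% of all genes. *Scd2* had 256.1 and *Scd1*, its paralog in adult liver, 49.2.

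**Figure D3:**
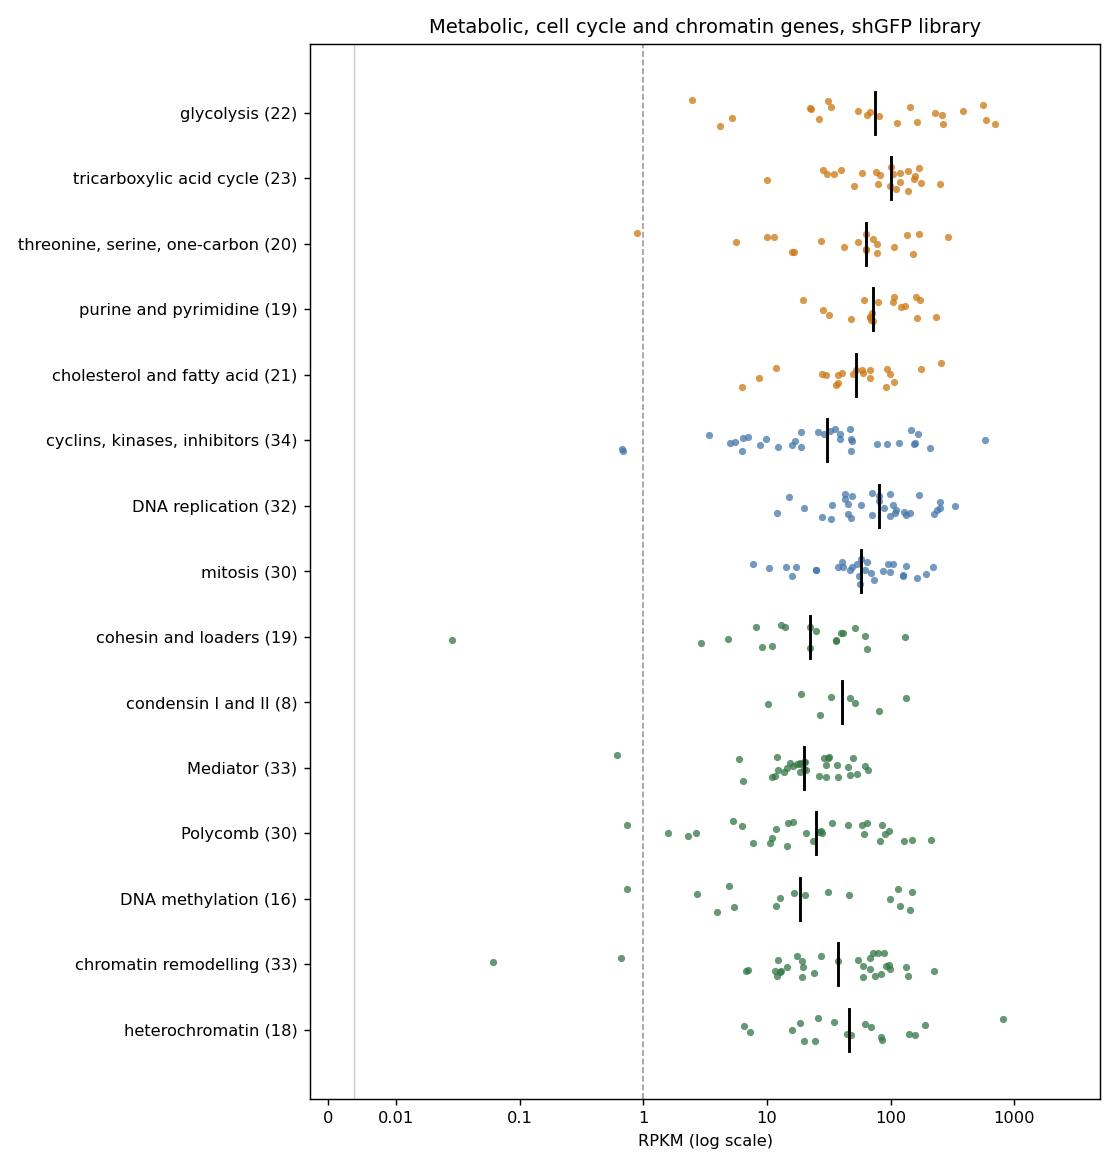
RPKM on a log scale (horizontal axis) of each measured member of 15 lists of metabolic (orange), cell cycle (blue) and chromatin (green) genes (rows, number of members in brackets) in the shGFP library, with list medians as black bars and an RPKM of 1 as a dashed line. Every list median lies between 18.4 and 101.7, and the few members under 1 include *Rad21l*, *Ccna1* and *Actl6b*.

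Cell cycle genes were those of a dividing population. *Cdk4* had the highest level of 34 cyclins, kinases and inhibitors, at 578.5 (570 to 587). *Ccne1*, cyclin E1 of the G1 to S transition, had 167.1 (163 to 171), *Ccna2* 154.6, *Ccnb2* 147.6 and *Cdk1* 116.4. The cyclin D genes were unequal, with *Ccnd3* at 210.0, *Ccnd1* at 93.4 and *Ccnd2* at 7.03. Cyclin E2, *Ccne2*, had 8.82. The retinoblastoma family, which restrains entry into S phase, was low, with *Rbl1* at 6.41, *Rb1* at 5.01 and *Rbl2* at 3.38. Of the inhibitors, *Cdkn1a* had 49.1, *Cdkn1b* 32.5, *Cdkn2a* 29.1 and *Cdkn2c* 0.672. The meiotic cyclin *Ccna1* (0.682) was the other member under 1. All 32 replication genes exceeded 12 (median 81.0), led by the sliding clamp *Pcna* (333.0) and the helicase subunits *Mcm5* (251.8) and *Mcm7*. The helicase subunit *Mcm2* had 237.4. All 30 mitosis genes exceeded 7 (median 57.2), with *Ube2c* (220.5), *Cenpa* (192.7) and *Cdc20* (164.1) the highest. Over all genes the median was 2.76.

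The chromatin lists included the complexes that the series perturbs in its other libraries, which are given here at their control level. Among cohesin genes, *Rad21* had 131.8, against 41.0 for *Smc3*, 36.1 for *Smc1a*, 14.0 for *Stag1*, 13.1 for *Stag2* and 9.14 for the loader *Nipbl*, while its partner *Mau2* had 24.9. The meiotic forms *Smc1b* (2.91) and *Rad21l* (1 count) were the lowest of the list. All 8 condensin genes were above 10, against a median of 2.76 over all genes. *Ncapd2* of condensin I was the highest at 133.9 (132 to 136) and *Ncapg2* of condensin II the lowest at 10.2 (9.66 to 10.7), and the shared subunits *Smc4* and *Smc2* had 47.4 and 26.6. The condensin II subunits were unequal in RNA, with *Ncaph2* at 80.2 and *Ncapd3* at 18.9. Of 33 Mediator genes, 32 reached 1 (97.0%, against 57.8% of all genes). They lay within a narrow range, from *Cdk19* (5.92) to *Med25* (65.3), with *Med1* at 13.6 and *Med12* at 10.9. The median of the list was 19.8. *Med12l*, a paralog of *Med12*, had 0.612.

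Several chromatin families showed a strong bias to 1 paralog. In Polycomb 29 of 30 genes were at 1 or more (96.7%, against 57.8% of all genes), with a median of 25.1. *Ezh2*, the methyltransferase of PRC2, had 82.3 against 14.5 for *Ezh1*. *Cbx7* had 128.7, against 28.1 for *Cbx6*, 16.1 for *Cbx2* and 1.57 for *Cbx8*. *Phc1* had 214.4, against 14.7 for *Phc2* and 2.28 for *Phc3*. *Rnf2*, the ubiquitin ligase of PRC1, had 45.3 against 10.5 for *Ring1*, and *Bmi1* had 2.66. The accessory protein *Jarid2* had 90.1, and *Eed* and *Suz12* had 84.8 and 60.6.

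Among DNA methylation genes *Dnmt3l*, the cofactor of de novo methylation, had 148.2 (144 to 152), *Uhrf1* 145.0, *Dnmt3b* 114.6, *Dnmt1* 98.5 and *Dnmt3a* 31.4. *Tet1* had 46.1, *Tet2* 16.4 and *Tet3* 2.72. In the BAF remodelling complex, the ATPase *Smarca4* had 87.7 (86.02 to 89.41) and its paralog *Smarca2* 0.663. Likewise *Actl6a* had 138.7 and its neuronal paralog *Actl6b* 2 counts (0.0600), *Smarcc1* had 79.2 and *Smarcc2* 12.3, and *Smarcd1* had 97.3 and *Smarcd3* 6.76. All 18 heterochromatin genes had an RPKM of at least 1, against 57.8% of all genes. After *Trim28* they were led by *Zfp57* (191.4), the zinc finger protein that keeps imprints, *Cbx1* (157.6) and *Kdm1a* (140.6), with *Setdb1* at 47.9.

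On the sex chromosomes, V6.5 is known as a male line, and its library had few counts from the Y. *Eif2s3y* had 3.10 (2.57 to 3.72, 118 counts), against 68.5 for its X-linked homolog *Eif2s3x*. *Ddx3y* had 0.831 against 113.5 for *Ddx3x*. *Uty* had 0.489, and *Kdm5d*, *Zfy1*, *Zfy2* and *Sry* had no count, although 100% of the contiguous windows of *Kdm5d* could be aligned. *Xist*, the RNA of X inactivation, had 0.988 (0.891 to 1.09) and its antisense *Tsix* 4.29. As the library kit does not mark the strand, reads where these overlap cannot be assigned to either. The median of expressed X-linked genes was 9.27 (416 genes) and of autosomal genes 14.35 (11749 genes), a ratio of 0.646.

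Several gene families had few or no counts. Among 1867 members of 16 families of receptors, keratins, defensins, homeobox and other genes with restricted expression, 1620 (86.8%) had no count, against 21.1% of all genes. Of the 1867, 58 had an RPKM of at least 1, of which 21 were gamma protocadherins. Of 1090 olfactory receptor genes 1055 had no count, the other 35 shared 130 counts, and only *Olfr985* reached 1, with 2.37 (1.80 to 3.07, 57 counts). For 185 of these receptors every contiguous window could be aligned, and 178 of those (96.2%) had no count, against 15.4% of all genes with such sequence. None of 255 vomeronasal receptors reached 1, but in 165 of them under 50% of the windows could be aligned, and for those a value of 0 does not show that the RNA was low. None of 51 hair keratin-associated proteins had a count. *Tas1r1* (1.35) of 38 taste receptors, *Defb42* (2.14) of 56 defensins and *Mup6* (1.29) of 15 major urinary proteins were the only members of their families at 1 or more. Under 50% of the windows could be aligned in 11 of the 15 major urinary proteins, 14 of the defensins and 11 of the keratin-associated proteins.

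Other restricted families were low with exceptions. The globins were all under 1. *Rhox6* (9.13), *Rhox9* (8.17) and *Rhox1* (2.00) were the members of the X-linked Rhox homeobox cluster at 1 or more, of 28, of which 20 had under 50% of windows that could be aligned. Among chemokines *Ccl25* (3.70), *Cxcl14* (3.11), *Cxcl16* (2.83), *Cxcl12* (2.35) and *Cxcl10* (1.22) reached 1, and among interleukins *Il17b* (3.09), *Il23a* (2.09) and *Il34* (1.70). Among 53 keratins 7 did so, as *Krt19* (16.9), *Krt42* (15.6), *Krt17* (13.7), *Krt7* (3.14) and *Krt10* (2.62) joined *Krt8* and *Krt18*. *Cyp2s1* (6.15) and *Cyp2b23* (1.51) were the cytochrome P450 family 2 members, and *Serpinb6a* (31.3), *Serpinb6c* (6.54), *Serpinb9b* (1.83), *Serpina3m* (1.34) and *Serpinb1a* (1.21) the serpins. Of the crystallins, *Cryab* (6.86), *Crybg2* (5.84), *Crybg3* (3.78), *Crygn* (1.93) and *Crybb3* (1.18) did.

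The Hox clusters, which pattern the body axis and are classic Polycomb targets, were low but rarely without a count. Of 39 Hox genes 36 were under 1, 9 (23.1%) had an RPKM of at least 0.5, only *Hoxb5* and *Hoxc11* had no count, and the median was 0.199. *Hoxc13* (1.95, 102 counts) and *Hoxb2* (1.14, 40 counts) were among those at 1 or more.

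The protocadherin clusters show how shared exons set a level. All 21 gamma protocadherins had between 2125 and 2514 counts and an RPKM from 19.8 (*Pcdhgc4*) to 24.9 (*Pcdhgc3*), so nearly the same value was listed for each. They have their last exons in common, and these rows end at the same place within 10 bases. The 12 numbered alpha protocadherins likewise lay between 31 and 35 counts and between 0.270 and 0.310 RPKM. The 22 beta protocadherins, which share no exon, had 0 to 14 counts each, and 8 had none. For the gamma and alpha genes the values therefore describe the cluster and not its single members.

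Promoter sequence followed these levels, although neither the level nor the lists use it. RefSeq promoters of GRCm38.p6, from 250 bases before to 50 bases after a start, could be matched to 16232 of the 21038 genes. For a gene with several starts, the CG values are means over its promoters, and TATAAA was counted if any of them held it. CpG islands are stretches rich in the dinucleotide CG, which elsewhere in the genome is depleted, and they mark most promoters of broadly expressed genes. The observed over expected number of CG was 0.6 or more in 50.7% of all matched genes. It was so in 3.39% of the 3307 genes with no count, in 30.4% of those with a count but an RPKM under 1, in 62.0% between 1 and 10, in 80.8% between 10 and 100 and in 85.95% of the 676 at 100 or more. The median ratio was 0.149 in genes with no count and 0.842 at 100 or more. The letters TATAAA on the gene's strand within 50 bases before the start were present in 3.73% of all matched genes, in 8.50% of those with no count, in 1.06% between 10 and 100, and in 3.25% at 100 or more. CG reads the same on both strands and TATAAA cannot overlap it.

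**Figure D4:**
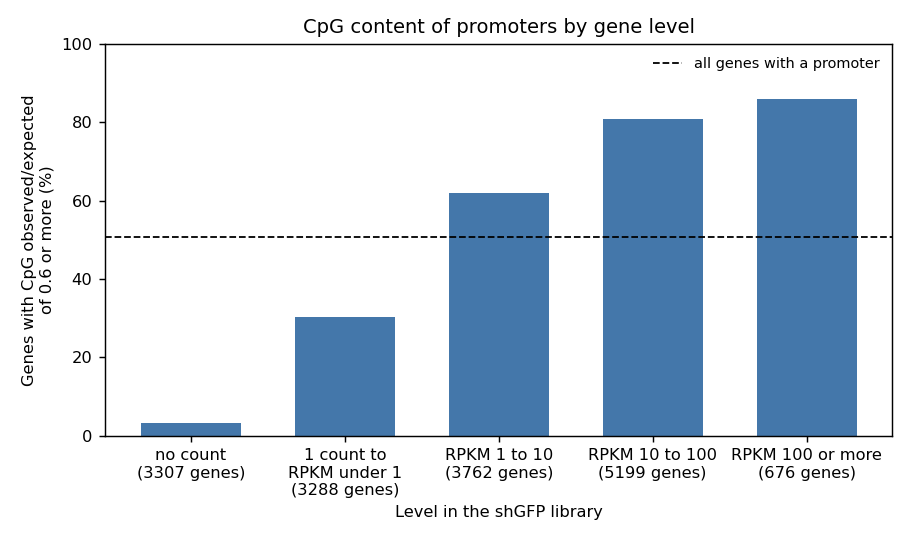
Share of genes in percent (vertical axis) whose observed over expected CG ratio, as the mean over the RefSeq promoters of the gene, was 0.6 or more, by level class in the shGFP library (horizontal axis, number of genes below each bar), with the share over all matched genes as a dashed line. The share goes from 3.39% in genes without a count to 85.95% in genes at an RPKM of 100 or more.

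The lists are set beside the 50.7% of all matched genes. Only 5 of 14 pluripotency factors with a promoter had a ratio of 0.6 or more, and their median was 0.548 although all are expressed. Such promoters were found in 10 of 13 neural genes (76.9%), whose median RPKM was 1.36. In Hox genes it was 11 of 22 (50%), near the share of all genes. In olfactory receptors it was 5 of 925, and in liver, gut and pancreas genes 0 of 11, of which 4 had TATAAA. The 100 bases before the start are shown for 3 expressed genes and 2 genes without a count, with every CG in capitals. *Ywhae* (chr11:75732787-75732886, plus strand), *Trim28* (chr7:13024052-13024151, plus), *Sox2* (chr3:34649895-34649994, plus), *Alb* (chr5:90460770-90460869, plus) and *Fabp1* (chr6:71199779-71199878, plus) are given in GRCm38.p6.
Ywhae: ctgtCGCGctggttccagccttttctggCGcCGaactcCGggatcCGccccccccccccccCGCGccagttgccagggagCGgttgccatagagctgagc
Trim28: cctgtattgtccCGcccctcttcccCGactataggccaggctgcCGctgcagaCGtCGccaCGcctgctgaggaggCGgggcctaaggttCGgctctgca
Sox2: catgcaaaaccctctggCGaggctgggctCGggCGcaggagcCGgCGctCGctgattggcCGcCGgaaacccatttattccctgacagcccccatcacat
Alb: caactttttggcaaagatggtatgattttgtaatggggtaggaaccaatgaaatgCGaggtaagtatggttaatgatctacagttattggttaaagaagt
Fabp1: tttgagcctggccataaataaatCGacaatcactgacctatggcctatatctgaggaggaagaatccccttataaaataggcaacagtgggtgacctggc

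Over the whole promoter of 300 bases, *Ywhae* held 36 CG, *Sox2* 27 and *Trim28* 23, against 3 each in *Alb* and *Fabp1*. In *Fabp1* the letters TATAAA begin 30 bases before the start. A match of letters is a description and not evidence of a bound factor.

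Alignment could set a limit on the level of many of the best-known genes. Reads that aligned to more than 2 places of the genome had been discarded by the authors, and processed pseudogenes are such extra places. To see which genes this touches, 100 windows of 36 bases were laid along an mm9 exon model of 19020 genes and sought in the genome with up to 2 mismatches, the read length itself being not given in the sources used here. In 1346 genes under 50% of the windows that do not cross an exon junction were found at 1 or 2 places. Of these 1346 genes 24.0% had an RPKM of at least 1, against 63.0% of the 11491 genes whose windows all qualified. In the 186 of them with no such window it was 8.06%. Of the 4128 genes with no count that have a model, 21.5% were of this kind, against 7.08% of all genes with a model, so that for 886 genes a value of 0 does not show that the RNA was low.

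The RPKM of the 87 cytosolic ribosomal protein genes, tissue paralogs included, differed by 2152 times between *Rpl8* and *Rps27* (1.499, 11 counts), and 55 of the 78 with a model had under 50% of windows at 1 or 2 places. The median RPKM was 9.31 in the 19 genes with under 10% of such windows, 23.1 in 36 genes with 10 to 50%, 63.98 in 16 genes with 50 to 90%, and 661.3 in 7 genes with 90% or more. Across these 78 genes the Spearman correlation of the share and the RPKM was 0.440, as a description over genes of 1 library. The relation was loose. *Rplp1* had 221.4 with under 10% of its windows at 1 or 2 places, and *Rpl3l*, a paralog of striated muscle, had 2.00 with 90% or more. The part of the alignment in this spread was not tested. The 8 subunits of the cytosolic chaperonin lay within 1.74 times of each other, from *Cct8* (265.4) to *Cct2* (462.3). Their testis paralog *Cct6b* had 0.499.

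**Figure D5:**
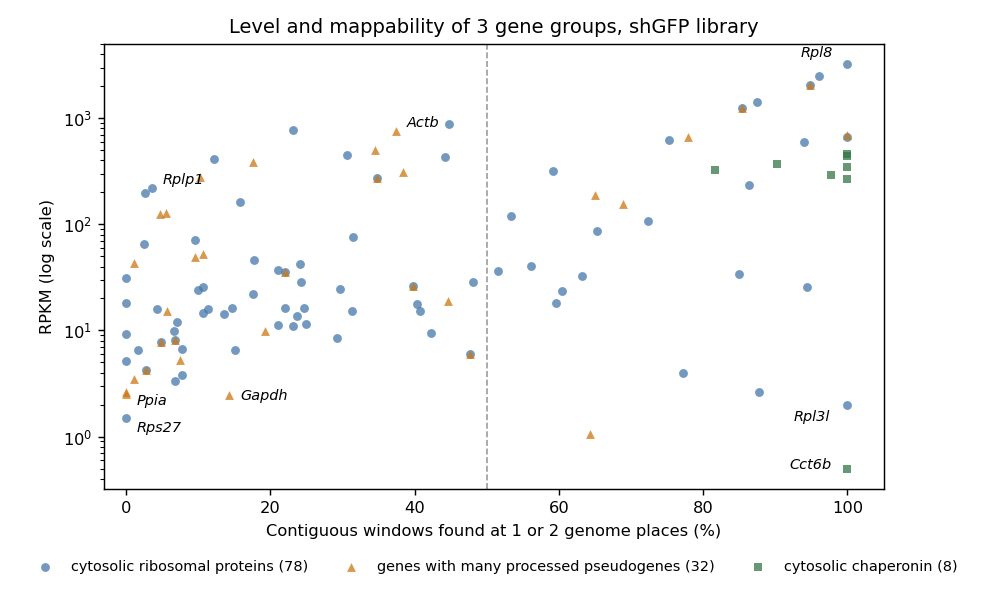
RPKM on a log scale (vertical axis) against the percentage of contiguous 36-base windows found at 1 or 2 places of mm9 (horizontal axis) for ribosomal protein, pseudogene-rich and chaperonin genes with an exon model, where each point is a gene and the dashed line is 50%. Points left of the line span 1.499 (*Rps27*) to 874.3 (*Rps20*), whereas the chaperonin genes other than *Cct6b* lie together from *Cct8* (265.4) to *Cct2* (462.3).

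Common reference genes were among those with few such windows at the assumed length. *Gapdh* (chromosome 6 from 125111870 to 125115601, minus strand, mm9) had 14.3% of contiguous windows at 1 or 2 places, *Actb* 37.4% at its RPKM of 756.7, *Actg1* 1.12% at 3.51, *Ppia* none at 2.53, *Hspa8* 1.15% at 42.9 and *Eef1a1* 4.65% at 125.7. Of 37 genes known for many processed pseudogenes, 25 had under 50%. The median RPKM was 42.9 with them and 172.8 over the 12 others, of which 5 had no exon model and were not examined. In glycolysis 8 genes were affected, namely *Pkm*, *Aldoa*, *Ldha*, *Tpi1*, *Eno1*, *Pgk1*, *Pgam1* and *Gapdh*, and reads from the other windows of these genes are not in their values. Elsewhere *Phgdh* (5.61, 5.13% of windows), *Tdg* (0.730, 2.22%), *Cbx3* (6.55, none), *Hdac1* (24.2, 14.7%) and *Dppa5a* (98.7, 5.68%) are values of the same kind. *Zscan4c* and *Zscan4d* had 2.13% and 6.38% of windows. For *Pou5f1*, 83.5% of windows qualified, and for *Alb* 100%. *Nanog* had no exon model here, so its windows were not examined. A window found at exactly 2 places can still lose reads to the other place, as for *Zfp42*, where 62 of 100 windows were of this kind.

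The histone genes of the replication-dependent clusters were low. Of 61, 11 had an RPKM of at least 1 (18.0%, against 57.8% of all genes), 25 had at least 0.5 (41.0%), and the highest was *H4c9* at 7.27. Their near-identical copies put 29 of the 40 with a model under 50% of windows. Their messenger RNAs are also known to end without a poly(A) tail, and the library kit selects poly(A) RNA. The parts of the alignment and of this selection were not tested.

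Very short rows were unreliable for another reason. Of 496 genes with rows under 200 bases, mostly microRNA hairpins and small nucleolar RNAs, 338 had no count and 121 (24.4%) an RPKM of at least 1. Of the 47 genes that reached 1 on fewer than 10 counts, 46 were such rows, since at 70 bases even no count allows an RPKM of up to 1.99. Of the 121, 101 lay within or over a longer gene on the same strand, and 90 (74.4%) over a gene with an RPKM of at least 10, against 16.3% of the short rows without a count. *Mir686*, the highest at 190.5 (173 to 209), is a 109-base row inside *Psmb5*, a proteasome subunit at 116.9, and 31.1% of its windows could be placed. *Snord22* (89.2) lies in *Snhg1* (129.6), *Snord96a* (86.3) in *Rack1*, and *AF357359* (153.8), a row of 29 bases, in *Rian* (89.2). Reads of the longer RNA and of the small RNA cannot be told apart in these rows.

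The microRNAs of the miR-290 cluster, the most abundant in mouse ESCs, are the case that matters for these cells. Their hairpins lie in *D7Ertd143e* (21.1), a transcript on chromosome 7 from 3218785 to 3221015. *Mir295* had 57.9 (46.3 to 71.5, 86 counts), *Mir293* 36.01 (62 counts), *Mir294* 21.0 (38 counts), *Mir292* 12.5 (22 counts), *Mir291b* 8.82 (15 counts), and *Mir291a* and *Mir290a* 3 counts each. Hairpins of a single transcript thus ranged from 3 to 86 counts. The kit selects poly(A) RNA, so these rows can hold fragments of the precursor and do not measure the mature microRNAs. The hairpins of the miR-302 cluster had 1 to 3 counts, and *Mir17*, *Mir21a* and *Mir106b* none. The mature sequences are from RefSeq, shown with the seed (bases 2 to 8), the part that pairs with targets, in capitals, because hairpins of different counts can share a seed.
miR-291a-3p: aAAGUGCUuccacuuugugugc
miR-294-3p: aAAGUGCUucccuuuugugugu
miR-295-3p: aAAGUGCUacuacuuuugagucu
miR-302b-3p: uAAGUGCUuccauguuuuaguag
miR-290a-3p: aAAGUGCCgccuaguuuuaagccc
miR-291b-3p: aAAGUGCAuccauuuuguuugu
miR-293-3p: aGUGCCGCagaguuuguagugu

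Of the sequences printed, the first 4 share the seed AAGUGCU and the others do not have it. No statement on the level of these mature microRNAs can be taken from this library.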

How the data were processed

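RNA-seq was measured in V6.5 ESCs, and only the shGFP library was used (n = 1; the other 5 libraries were not used). For the alignment the authors used Bowtie on mm9, with the settings -e 70, -k 1, -m 2 and -n 2 and without splicing, so that reads at more than 2 places were discarded, and they made both columns with the program RPKM_count 2.3.5. The deposited counts are exonic reads per RefSeq transcript, and the deposited RPKM scales them to exon length and library reads. Depth was 28524603 counts over RefSeq rows and 499195 over ERCC rows.

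For 25353 rows the accession gave the gene symbol, and for 645 an overlap of at least 50% with a GENCODE gene did. The 75 rows without a symbol were left out. The row with the most counts stood for a gene. Members and lists (32 lists, 29 name families) were chosen with earlier results of these data known. Named were the 25 highest genes from rows of at least 300 bases, the highest shorter rows, in each list the first 8, the 3 highest and those without a count, and others chosen after their values were seen. Some members of the lists are not reported here. No test was run, as 1 library allows none. Exact Poisson 95% intervals of counts were scaled to RPKM. The window search was tested on simulated sequences. Python 3.11.15, numpy 2.4.6, pandas 2.3.3 and scipy 1.17.1 were used. The RNA-seq read length is not given in the sources used here. Alternatives were other row choices, RPKM limits of 0.5 and 2, a minimum of 10 counts, and leaving out short or poorly alignable rows.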

Additional observations from a re-analysis of the deposited data

Results flagged for a closer look

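The ERCC synthetic RNAs were left out of every level above. A count was found for 81 of the 92, and they took 1.72% of all counts in the library. Their RPKM reached 9508 at the highest, with a median of 4.27 among those with a count and 0.0230 as the lowest value above 0. They were noted because they are a signal outside the genes described, and no level here was scaled to them.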

How the results depend on the processing

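The numbers of genes at an RPKM of at least 1 and of genes with no count, over all genes, stayed within 1.5 times under every alternative run. Among the lists more moved. With an RPKM limit of 0.5, 13 of the 61 shares were labelled as moved, among them heart, muscle and blood genes to 46.7%, Hox genes to 23.1% and clustered histones to 41.0%. Other shares rose without that label, such as trophectoderm from 62.5% to 75% and liver, gut and pancreas from 15.4% to 30.8%. By the same label, leaving out poorly alignable members moved 7 medians, and taking the row with the highest RPKM moved 1. The share of the summed RPKM in the 100 most abundant genes was 16.3%, and it was 13.9% over all RefSeq rows, 16.3% over rows of at least 200 bases, and 12.8% as a share of counts with no length scaling. No paired analysis was possible because the results come from no test. With 1 library, biological spread is unknown, and depth limits genes of few counts and short rows. The exon models come from another annotation than the counts, so the shares of windows are approximate.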

Other observations

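Signalling genes, in lists added after the levels were seen, were expressed almost throughout. The LIF pathway sustains ESCs through JAK and STAT3. All 10 of its listed genes had an RPKM of at least 1, against 57.8% of all genes. *Socs3*, a feedback inhibitor, had 137.3, *Pim1* 98.1, *Stat3* 34.9, the receptor subunits *Il6st* and *Lifr* 24.3 and 9.69, and *Jak1* and *Jak2* 16.4 and 1.93. In FGF and ERK signalling *Fgfr1* had 43.1, against 2.70 for *Fgfr2*, 1.62 for *Fgfr3* and 1.39 for *Fgfr4*. The kinase *Mapk3* had 90.9, and the targets *Spry2*, *Etv5* and *Etv4* 56.7, 55.7 and 52.5. In the Nodal pathway the ligand *Nodal* had 42.3 and *Smad2* and *Smad3* 20.4 and 9.37. Of the BMP targets *Id1* had 62.1 and *Id3* 26.8. In Wnt signalling *Ctnnb1*, which encodes beta-catenin, had 354.2, the repressor *Tcf7l1* 44.0, and the target *Axin2* 4.23.

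Of 18 imprinted genes 15 had an RPKM of at least 1, against 57.8% of all genes, and the median was 22.9. *Grb10* (93.9), *Rian* (89.2), *Snrpn* (89.1) and *Mest* (88.3) were the highest. *H19* and *Igf2*, neighbours expressed from opposite parental chromosomes, had 22 and 23.9, and *Meg3* and *Dlk1*, another such pair, 27.1 and 4.69. *Kcnq1ot1* had 0.0810. These levels do not separate the parental alleles.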
